A study of Mus musculus with 32 samples.

Results

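The guanylate-binding protein genes Gbp2, Gbp2b, Gbp3, Gbp4, Gbp5, Gbp6, Gbp7, Gbp9 and Gbp11 and the very large inducible GTPase gene Gvin1 were followed across 2 mouse cell lines. They are 10 of the 24475 genes in each RNA table, found by symbol, and 145 of the 215616 intervals in the 8 peak lists, found by the gene name given to the interval. The genes were chosen by their RPKM change with the Bcl11b guide in Scid.adh.2c2, so their values in that comparison, and in the difference between lines that contains it, are described here with no test. Scid.adh.2c2 resembles pro-T cells. ILC2/b6 derives from group 2 innate lymphoid cells, and its medium held 10 ng/ml each of the cytokines IL-33, IL-2 and IL-7.

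Each line was transduced with sgBcl11b-CFP, a guide against the transcription factor gene Bcl11b, or with sgControl-CFP, the control guide, with 2 RNA libraries per guide and line. The labels do not state the share of cells edited, and each cell type is represented by 1 line. Binding of Bcl11b, GATA3, Runx1 and Runx3 was mapped by ChIP-seq in each line, with 1 peak list per factor and line made from 2 libraries. Total reads, recovered from the RPKM steps, were 35.0 to 40.8 M in the Bcl11b guide libraries and 34.7 to 43.7 M in the control guide libraries. All 10 pro-T markers reached 1 RPKM in every Scid.adh.2c2 library, and all 10 ILC2 markers did so in every ILC2/b6 library. Bcl11b mRNA was 47.1 and 46.8 RPKM with the Bcl11b guide and 47.0 and 49.5 RPKM with the control guide in Scid.adh.2c2, and 7.04 and 7.24 RPKM against 6.85 and 6.33 RPKM in ILC2/b6. An edited transcript can keep its level, so these values do not check the labels.

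Guanylate-binding proteins are GTPases of the dynamin superfamily that interferons induce, most strongly interferon gamma. They assemble on the vacuoles and membranes of intracellular pathogens, break them open and feed microbial products to inflammasomes. Interferon gamma signals through the kinases Jak1 and Jak2 to gamma-activated sites (GAS) in DNA. Type I interferons signal through Jak1 and Tyk2 to a complex that holds Stat2 and Irf9 and binds the interferon-stimulated response element (ISRE). In the mouse the genes sit in 2 clusters, and the genes on chromosome 3 are needed together to control the parasite Toxoplasma gondii. Of the members, Gbp2, Gbp2b, Gbp3, Gbp5 and Gbp7 lie on chromosome 3 between positions 142159898 and 142300972, and Gbp4, Gbp6, Gbp9 and Gbp11 on chromosome 5 between 105505485 and 105775495 (mm9). Within these clusters, the 4 members with the highest RPKM in Scid.adh.2c2 with the Bcl11b guide sit at chr5:105699721-105722718 (Gbp6), chr5:105544786-105568605 (Gbp4), chr3:142257811-142282140 (Gbp2b) and chr3:142283627-142300972 (Gbp2). Gvin1 lies on chromosome 7 among related genes.

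RefSeq promoters (GRCm38.p6) were at hand for the 5 chromosome 3 genes, and the 250 bases before a start site are shown because the window printed for each gene holds the letters of an ISRE. Capitals mark matches to GAAA, any 2 bases and GAAA, or to the reverse, TTTC, any 2 bases and TTTC, and all 5 sequences are on the plus strand. For Gbp3, which has 2 start sites in the table, the one farther upstream is shown, and the window of the other, chr3:142560106-142560355, holds no ISRE letters.
Gbp5, chr3:142496684-142496933: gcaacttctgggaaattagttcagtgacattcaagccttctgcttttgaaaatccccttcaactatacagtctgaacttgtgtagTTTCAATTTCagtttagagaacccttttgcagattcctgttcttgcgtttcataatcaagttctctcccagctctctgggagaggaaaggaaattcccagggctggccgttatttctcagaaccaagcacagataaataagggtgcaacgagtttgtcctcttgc
Gbp7, chr3:142530086-142530335: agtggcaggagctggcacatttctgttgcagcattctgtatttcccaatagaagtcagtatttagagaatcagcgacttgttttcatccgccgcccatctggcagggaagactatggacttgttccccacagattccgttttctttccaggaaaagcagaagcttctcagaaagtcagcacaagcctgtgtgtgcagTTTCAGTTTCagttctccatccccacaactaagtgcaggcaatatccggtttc
Gbp3, chr3:142559794-142560043: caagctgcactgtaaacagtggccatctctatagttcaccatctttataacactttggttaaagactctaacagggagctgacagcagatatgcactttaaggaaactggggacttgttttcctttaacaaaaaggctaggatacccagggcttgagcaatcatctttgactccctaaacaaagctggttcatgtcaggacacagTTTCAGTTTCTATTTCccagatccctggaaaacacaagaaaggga
Gbp2b, chr3:142594597-142594846: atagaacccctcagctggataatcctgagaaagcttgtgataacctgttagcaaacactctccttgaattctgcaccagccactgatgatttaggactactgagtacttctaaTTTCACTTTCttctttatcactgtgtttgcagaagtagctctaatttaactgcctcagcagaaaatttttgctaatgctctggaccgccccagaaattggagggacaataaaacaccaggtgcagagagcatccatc
Gbp2, chr3:142620413-142620662: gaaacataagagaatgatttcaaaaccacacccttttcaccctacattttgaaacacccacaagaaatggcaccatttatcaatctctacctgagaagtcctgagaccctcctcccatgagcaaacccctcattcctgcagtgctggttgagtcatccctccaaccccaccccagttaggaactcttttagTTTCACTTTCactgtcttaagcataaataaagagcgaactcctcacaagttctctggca

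The ISRE letters were thus in 1 window of each of the 5 genes and absent from the second window of Gbp3. They stood in 2.98% of the 32851 promoters of the same length. In each the match was in the reverse orientation, ending 128 bases before the start site in Gbp2b, 156 in Gbp5, 50 in Gbp2, 44 in Gbp7 and 30 in Gbp3, where 2 matches share letters. The GAS letters TTCNNNGAA, which read the same on both strands, were in 2 of the 5 windows, those of Gbp5 and Gbp7, with 2 matches in each, and in 7.02% of all promoters. Letters known to be bound by the mapped factors were in some of the 5. The Runx letters TGTGGT or ACCACA stood in 1 window (Gbp2, against 14.05% of all promoters). The GATA letters AGATAA or TTATCT stood in 1 (Gbp5, 9.99%) and TGATAA or TTATCA in 2 (Gbp2b and Gbp2, 7.94%). These are matches of letters and show no binding.

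In Scid.adh.2c2 every one of the 10 genes was several-fold higher with the Bcl11b guide, in both libraries and with no overlap between guides. Gvin1 had 95.0 and 92.2 RPKM in the Bcl11b guide libraries and 1.27 and 1.46 RPKM in the control guide libraries. As listed, with its 2 copies counted together, it was the lowest of the 10 with the control guide and the fifth highest with the Bcl11b guide. The ratio of means was 68.6, and the log2 fold change of 5.66 ± 0.07 (SE) ranked 5 among the 10221 genes tested in this line.

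Among the chromosome 3 genes, Gbp2b had 136 and 129 RPKM with the Bcl11b guide and 10.5 and 10.6 RPKM with the control guide (log2 fold change 3.59 ± 0.04). Gbp2, whose protein coats the parasite vacuole, had 127 and 123 RPKM with the Bcl11b guide and 12.96 and 12.6 RPKM with the control guide (3.24 ± 0.04). In these neighbouring genes no library of one guide overlapped the other guide. Gbp7 had 79.2 and 76.5 RPKM with the Bcl11b guide against 13.9 and 14.6 RPKM (2.41 ± 0.05). Gbp5, which promotes inflammasome assembly in macrophages, was the lowest of the 10 with the Bcl11b guide, at 11.4 and 10.4 RPKM against 1.60 and 1.55 RPKM with the control guide (2.46 ± 0.08). Gbp3 changed least of the 10, with 36.9 and 35.9 RPKM against 8.24 and 8.55 RPKM (2.05 ± 0.05).

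Of the chromosome 5 genes, Gbp6 was the highest of all 10 with either guide, at 256 and 255 RPKM with the Bcl11b guide and 32.2 and 29.0 RPKM with the control guide (3.04 ± 0.05). Gbp4 followed it under both guides, with 182 and 180 RPKM against 21.4 and 20.6 RPKM (3.08 ± 0.04). Gbp6 and Gbp4 were thus the highest of the 10 with either guide in this line. Gbp11 had 65.7 and 65.4 RPKM with the Bcl11b guide and 6.97 and 6.79 RPKM with the control guide (3.16 ± 0.04). Gbp9 had 60.4 and 60.9 RPKM with the Bcl11b guide and 9.72 and 10.2 RPKM with the control guide (2.55 ± 0.05). Gbp11 was below Gbp9 with the control guide and above it with the Bcl11b guide. No neighbours in the order of levels overlapped under either guide.

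**Figure D1:**
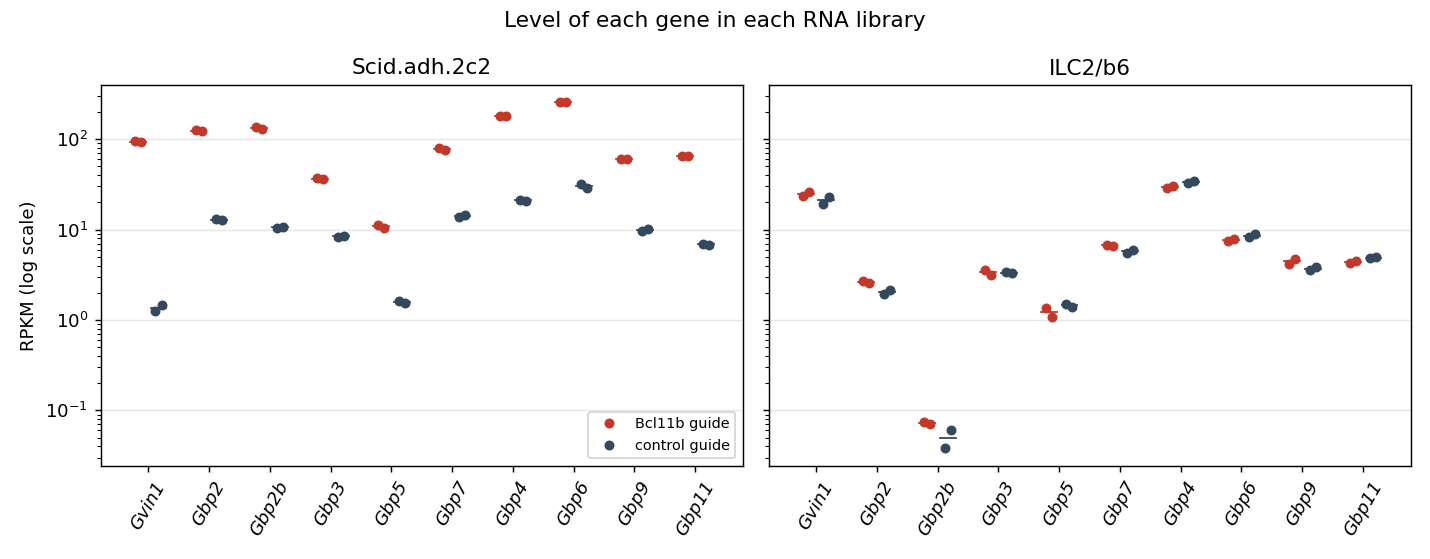
RPKM on a log axis in each RNA library (points, with a line at the mean of 2) for the 10 genes, with the Bcl11b guide left of the control guide. In Scid.adh.2c2 all Bcl11b guide points lie above all control points of their gene, and in ILC2/b6 the guides lie close together for every gene and Gbp2b is under 0.1 RPKM.

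Summed over the 10 genes, Scid.adh.2c2 held 1049 and 1029 RPKM in the Bcl11b guide libraries and 119 and 116 RPKM in the control guide libraries. Gvin1, its copies counted together, made up 9.06% and 8.97% of that sum with the Bcl11b guide, against 1.07% and 1.26% with the control guide. All 10 genes passed the filter and 10 of 10 were called higher, where 35.1% of the 10221 genes tested in Scid.adh.2c2 were called higher, 22.7% lower and 57.8% in either direction. Both guide libraries stood above both control libraries in 10 of 10 genes and in 46.5% of all genes tested, and the groups did not overlap, in either direction, in 80% of all. The contrast chose the genes, so nothing is read from these counts. RNA per cell and the share of cells that respond cannot be told apart in these bulk libraries. The median log2 fold change was 3.06 over the 10 genes and 0.05 over all genes tested. With median-centred values the all-gene median shifted by -0.13, which changed the split of calls over all genes to 2466 higher and 3934 lower, against 3589 higher and 2319 lower as deposited.

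In ILC2/b6 the same genes stood at other levels and the Bcl11b guide moved them little. Gbp4 was called lower with the Bcl11b guide, with 28.9 and 30.4 RPKM against 32.8 and 34.3 RPKM with the control guide (log2 fold change -0.18 ± 0.05, limma adjusted p = 0.0434). That difference exceeded the spread between libraries but not by much, and the call was lost in 5 of the 11 alternative analyses. Of the 9 genes tested, 1 was called, against 14.5% of the 10526 genes tested in this line (8.32% higher, 6.21% lower), so the share is near that of all genes. The median over the 9 was 0.01, against 0.02 over all genes.

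The 8 other tested genes had values on both sides of 0 and none passed in this fit, though alternatives change that. A joint fit of all 8 libraries called Gbp2, Gbp7 and Gbp9 higher (limma adjusted p = 0.00951, 0.0294 and 0.0446). Without control guide replicate 2, Gvin1, Gbp2 and Gbp7 were called higher (0.0106, 0.0482 and 0.0466). Gvin1 had 23.8 and 25.9 RPKM with the Bcl11b guide and 19.4 and 23.1 RPKM with the control guide (0.23 ± 0.08, adjusted p = 0.114), and leaving out 1 library moved the value between 0.10 without control replicate 1 and 0.35 without control replicate 2. Gbp2 had 2.68 and 2.55 RPKM against 1.96 and 2.13 RPKM (0.29 ± 0.08, adjusted p = 0.0554). Gbp9 and Gbp7 also had positive values, 0.24 ± 0.08 (adjusted p = 0.0900) and 0.20 ± 0.06 (adjusted p = 0.0635), while Gbp6, Gbp11 and Gbp5 had negative ones, -0.15 ± 0.06, -0.14 ± 0.06 and -0.19 ± 0.11 (adjusted p = 0.147, 0.175 and 0.285). The value of Gbp5 was -0.30 without Bcl11b guide replicate 1 and -0.09 without replicate 2, that of Gbp9 was 0.16 without Bcl11b guide replicate 2, and that of Gbp6 was -0.10 without control replicate 2. Only Gbp3 overlapped between guides, at 3.57 and 3.18 RPKM against 3.39 and 3.28 RPKM (0.01 ± 0.08, adjusted p = 0.941), and its sign turned with median-centring or quantile normalization. The groups did not overlap for 8 of the 9 genes tested, against 59.9% of all genes tested. Both guide libraries were above both control libraries in 4 of the 9, against 33.6% of all.

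Gbp2b was the exception in level, at 0.074 and 0.071 RPKM with the Bcl11b guide and 0.038 and 0.061 RPKM with the control guide, or 8 and 7 reads against 4 and 6. It fell under the filter and was not tested in ILC2/b6. Its neighbour Gbp2 was low there too but well above it. Summed over the 10 genes, ILC2/b6 held 83.1 and 86.8 RPKM with the Bcl11b guide and 81.2 and 87.8 RPKM with the control guide, and those ranges overlap. Gbp4, Gvin1 (copies together), Gbp6 and Gbp7 led the order with either guide, and with the Bcl11b guide the neighbours Gbp9 and Gbp11 overlapped. The tables were normalized separately for each line, so no level was tested between lines.

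**Figure D2:**
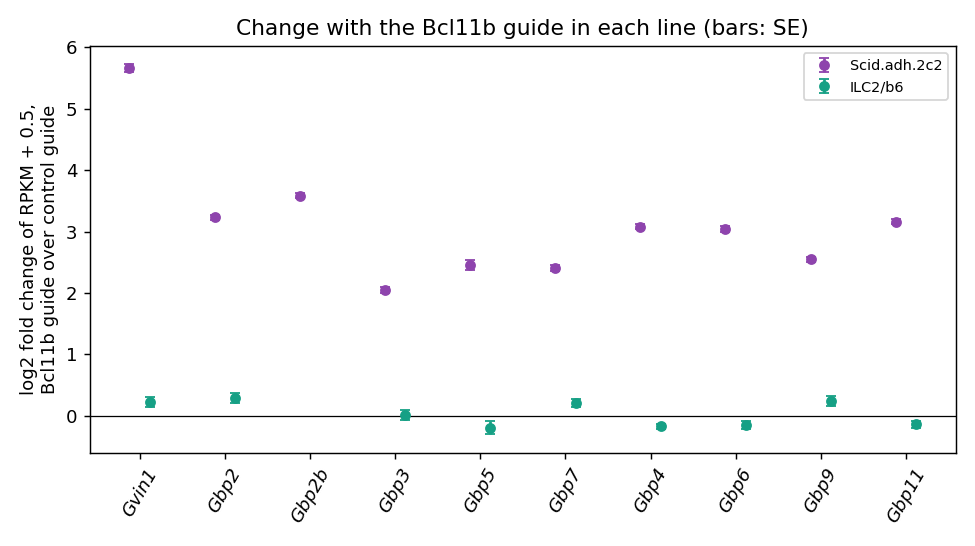
Log2 fold change of RPKM + 0.5, Bcl11b guide over control guide, with its SE, for each gene in Scid.adh.2c2 (purple) and ILC2/b6 (green); Gbp2b was not tested in ILC2/b6. All 10 purple points lie at 2.05 or above and all 9 green points between -0.19 and 0.29.

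The difference between lines in the guide effect follows from these values. It was 5.43 ± 0.12 on the log2 scale for Gvin1, the largest, and 2.04 ± 0.09 for Gbp3, the smallest, with the other 8 between 2.21 for Gbp7 and 3.53 for Gbp2b. All 10 were called higher in Scid.adh.2c2, against 27.1% of the 11600 genes in that contrast (45.1% in either direction), and since the contrast holds the values that chose the genes, nothing is read from this count.

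Gvin1 needs care, because its row is listed with 2 copies in the genome. The table of Scid.adh.2c2 places it at chr7:113043633-113102484 and that of ILC2/b6 at chr7:113300050-113358854 (mm9), with the same transcript length of 8841 bases. Gm4070, a predicted gene listed at the same place, had nearly the same reads (95.1 and 92.3 RPKM with the Bcl11b guide, 1.27 and 1.46 RPKM with the control guide in Scid.adh.2c2). The levels are therefore those of the copies together. Reads of the guanylate-binding protein genes, which are close paralogs, may also be divided among them in an uncertain way.

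The list counts that follow stand beside 35.1% of all genes tested called higher and 22.7% called lower in Scid.adh.2c2, and 8.32% higher and 6.21% lower in ILC2/b6. In ILC2/b6 an unadjusted limma p under 0.05 was common, reached by 3134 of the 10526 genes tested and by 6 of the 9 members tested. Nothing is read from the unadjusted counts of the lists. Of 10 other guanylate-binding protein and Gvin genes listed, 7 were in the tables, and all 6 that were tested rose with the Bcl11b guide (median log2 fold change 3.81). They are not 6 separate measurements, since Gm4070 repeats the reads of Gvin1, and Gm8989 and Gm8979 overlap and share reads (3643 and 3448 against 1821 and 1724 with the Bcl11b guide). Gm8989, Gm8979 and Gm1966 were under 1 RPKM in both control libraries. These genes passed the filter only through the Bcl11b guide libraries, so a fall could not have been counted for them. Gbp10 had 284 and 281 RPKM against 29.9 and 26.6 RPKM (3.30), above even Gbp6 with the Bcl11b guide. Gm8989 rose by 5.34, Gm8979 by 4.32 and Gm4070 by 5.66. In ILC2/b6 none of the 5 tested was called by limma, with 3 at an unadjusted p under 0.05. These genes share the libraries of the 10, and the counts are a description.

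The immunity-related GTPases, which coat the same pathogen vacuoles together with guanylate-binding proteins, rose as a group in Scid.adh.2c2. All 14 tested of 15 were called higher, with a median log2 fold change of 2.70. F830016B08Rik had 36.3 and 34.7 RPKM with the Bcl11b guide and 0.972 and 1.35 RPKM with the control guide (4.45 ± 0.11). Gm12250 (4.42), Gm4841 (4.34) and Gm4951 (3.93) were the next largest. F830016B08Rik, under 1 RPKM in control replicate 1, needed the Bcl11b guide libraries to pass the filter. In ILC2/b6, 9 were tested and 1 rose, near the 8.32% of all genes, namely Irgm2, a regulator of this family, with 9.33 and 9.99 RPKM with the Bcl11b guide against 7.69 and 7.95 RPKM (0.29 ± 0.06, limma adjusted p = 0.0171). The dynamin-like antiviral genes Mx1 and Mx2 both rose in Scid.adh.2c2 (1.40 and 1.04) and neither was tested in ILC2/b6.

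Genes of the interferon gamma pathway changed in part. In Scid.adh.2c2, 6 of 7 tested were called higher and 0 lower, and Ifngr2, a receptor chain, was not called. With median-centred values 5 were higher, and with quantile normalization 5 were higher and 1 lower. Ifng, the ligand, had 5.47 and 4.69 RPKM with the Bcl11b guide and 0.437 and 0.335 RPKM with the control guide (2.65 ± 0.11). It passed the filter only through the Bcl11b guide libraries, so a fall could not have been counted for it. The transcription factor gene Irf1 rose (165 and 167 RPKM against 49.5 and 45.7 RPKM, 1.79), as did the kinase gene Jak2 (1.21). In ILC2/b6 none of 7 was called by limma, with 3 at an unadjusted p under 0.05. Ifng was listed at 0 in both Bcl11b guide libraries there, and at 0.067 and 0.024 RPKM with the control guide.

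In the type I interferon list, 5 of 7 tested were called higher in Scid.adh.2c2 and 0 lower (1 lower with quantile normalization). Irf7, the factor that amplifies type I interferon production, had 62.8 and 66.5 RPKM with the Bcl11b guide and 11.1 and 8.85 RPKM with the control guide (2.64 ± 0.09). Stat2 (1.83), Tyk2 (1.07) and Irf9 (0.99) also rose, while the values of the receptor gene Ifnar1 and of Irf3 were -0.01 and 0.11 and were not called, and that of Irf3 turned negative under both other scalings. The ligand genes stayed under the filter. Ifnb1 had 0.447 and 0.389 RPKM with the Bcl11b guide, from 14 and 12 reads, and was listed at 0 in both control libraries. Ifna4 had 0.306 and 0.698 RPKM, from 8 and 18 reads, and was also listed at 0 with the control guide. In ILC2/b6 both were listed at 0 in every library. There 1 of 7 tested was called, against 14.5% of all genes, the receptor gene Ifnar2 (26.95 and 26.0 RPKM against 22.5 and 21.9 RPKM, 0.25 ± 0.04, limma adjusted p = 0.00999).

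The inhibitors of interferon signalling did not move one way. Of 5 tested in Scid.adh.2c2, 3 were called higher and 1 lower, against 1 higher and 1 lower with median-centred values. Usp18, which blocks the type I receptor, had 82.0 and 87.5 RPKM with the Bcl11b guide and 11.2 and 9.86 RPKM with the control guide (2.95 ± 0.07). Socs3 fell, with 3.43 and 3.94 RPKM against 12.4 and 13.7 RPKM (-1.69 ± 0.09). The values of Ptpn6 and Pias1 were 0.28 and 0.25, and these were the calls lost. Socs1, the main brake on interferon gamma signalling, was listed at different levels in the 2 lines, which were normalized separately and not tested against each other. It had 0.02 and 0.061 RPKM with the Bcl11b guide and 0.075 and 0.047 RPKM with the control guide in Scid.adh.2c2. In ILC2/b6 it had 146 and 153 RPKM against 136 and 119 RPKM (0.24 ± 0.06, limma adjusted p = 0.0463), a call lost with median-centred values.

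Inflammasome genes, through which guanylate-binding proteins act in macrophages, were mostly low in Scid.adh.2c2, where 4 of 9 could be tested and all 4 rose. Zbp1, a sensor of nucleic acids, had 181 and 181 RPKM with the Bcl11b guide and 23.4 and 18.4 RPKM with the control guide (3.09 ± 0.10). Gsdmd, the pore-forming protein, rose by 1.61, Casp1 by 1.34 and the adaptor Pycard by 0.66. Casp1, at 0.503 and 0.748 RPKM with the control guide, passed the filter only through the Bcl11b guide libraries. In ILC2/b6 2 of 7 were called, both lower, where 6.21% of all genes were called lower. Nlrp3 had 4.49 and 4.46 RPKM with the Bcl11b guide and 7.30 and 7.49 RPKM with the control guide (-0.67 ± 0.06, limma adjusted p = 0.000639), and Casp4, the sensor of bacterial lipopolysaccharide, had 10.2 and 11.9 RPKM against 13.7 and 15.6 RPKM (-0.39 ± 0.09, adjusted p = 0.0270).

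Other interferon-stimulated genes rose in Scid.adh.2c2, 12 of 12 tested, with a median of 2.80. Ifit3, an antiviral gene, had 32.6 and 35.4 RPKM with the Bcl11b guide and 0.883 and 1.11 RPKM with the control guide (4.53 ± 0.09). Oasl2 (4.23), Ifi44 (4.11) and the antiviral enzyme gene Rsad2 (3.95) were next. Oasl2 and Ifi44 were under 1 RPKM in both control libraries, and Ifit3 and Rsad2 in control replicate 1. These genes needed the Bcl11b guide libraries to pass the filter, so a fall could not have been counted for them. In ILC2/b6 none of 6 tested was called by limma, with 2 at an unadjusted p under 0.05. A profile was taken as log2(RPKM + 0.5) in each of the 8 libraries minus the mean of the control libraries of its line. The 5 other genes closest to the median profile of the 10 were taken from 11590 genes by root mean square difference in log2 units. They were Pik3c2g (0.044), Cxcr3 (0.051), Oasl1 (0.054), Cd53 (0.059) and Gja5 (0.062). Pik3c2g, Cxcr3 and Gja5 were listed at 0 in every ILC2/b6 library, and Oasl1 at 0.024 RPKM or less. Their flat profile there was fixed by the pseudocount, and of the 5 only Cd53 was tested in ILC2/b6.

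**Figure D3:**
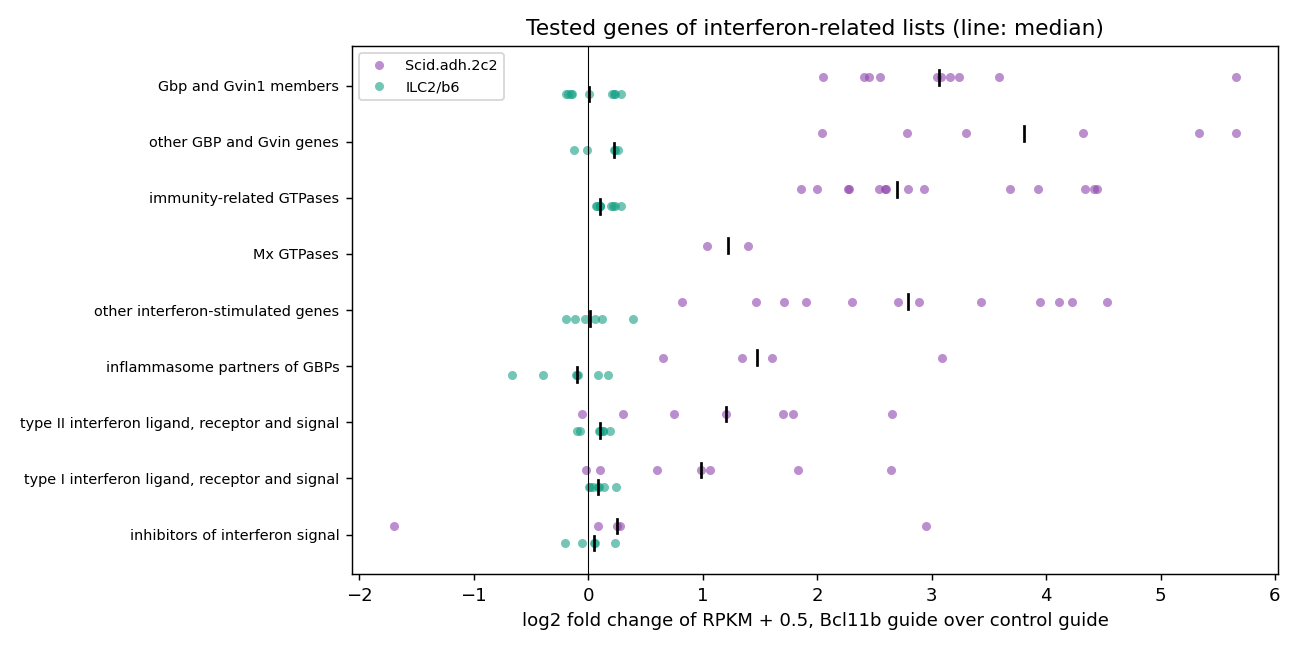
Log2 fold change of each tested gene (points, Scid.adh.2c2 in purple above ILC2/b6 in green) in the 10 genes and 8 interferon-related lists, with a line at each median. Medians lie between 0.25 and 3.81 in Scid.adh.2c2 and between -0.10 and 0.23 in ILC2/b6.

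Marker levels of the line itself and of other cell types differed between guides in Scid.adh.2c2. The 10 pro-T markers summed to 827 to 832 RPKM with the Bcl11b guide and 1247 to 1283 RPKM with the control guide. Not all 10 were lower. Tcf7, Ptcra, Rag1, Il2ra, Notch1 and Lck were lower with the Bcl11b guide in both libraries. Cd3g and Cd3d were higher in both, and Cd3e and Bcl11b overlapped between guides. The 10 ILC2 markers summed to 323 to 330.4 RPKM with the Bcl11b guide and 138.5 to 139 RPKM with the control guide. Id2, an inhibitor of E proteins, was the highest of them with the Bcl11b guide and made up most of that difference. Gata3, Rora, Icos, Il13 and Klrg1 were also higher in both Bcl11b guide libraries. Il7r was lower in both, and Il1rl1, Il5 and Areg overlapped between guides. The 5 natural killer markers summed to 38.5 to 39.8 RPKM with the Bcl11b guide and 0.28 to 0.288 RPKM with the control guide. Nearly all of the sum with the Bcl11b guide was Ncr1. Klrb1c, Klrd1 and Klrk1 were also higher in both Bcl11b guide libraries, each under 1 RPKM. Eomes was higher in both as well but stayed under 0.1 RPKM. The 7 macrophage and monocyte markers summed to 5.38 to 5.57 RPKM with the Bcl11b guide against 2.93 to 3.41 RPKM. Itgam, Cd68 and Adgre1 were higher in both Bcl11b guide libraries, and Itgam made up most of that difference. Cd14 and Marco were at 0 and Csf1r and Lyz2 under 0.1 RPKM in all 4 libraries. The B cell genes Ms4a1 and Pax5 were at 0. The part of these marker differences in the values of the 10 genes was not tested.

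Binding was examined next, since it is independent of the RNA values that chose the genes. In Scid.adh.2c2, 47 intervals carried the name of a member, 11 for Bcl11b, 20 for GATA3, 6 for Runx1 and 10 for Runx3. In ILC2/b6 there were 98, with 16 for Bcl11b, 32 for GATA3, 17 for Runx1 and 33 for Runx3. The ILC2/b6 lists of Bcl11b, Runx1 and Runx3 are also longer overall (21677, 26258 and 44938 intervals, against 17874, 13664 and 20523 in Scid.adh.2c2), so counts are not compared by test. The intervals merged into 60 sites, of which 22 were found in both lines, 6 in Scid.adh.2c2 alone and 32 in ILC2/b6 alone, and 15 of the last belong to Gvin1.

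Bcl11b intervals in Scid.adh.2c2 were named to 7 of the 10 genes and to none of Gvin1, Gbp2 and Gbp2b. Gbp2 had no interval of any factor in Scid.adh.2c2, and Gbp2b had 1, a GATA3 interval 14255 bases upstream with a score of 15.5, rank 35102 of 36973. In ILC2/b6, Gbp2 had a Runx1 interval 758 bases and a Runx3 interval 806 bases upstream of the start site (scores 19.8 and 21.2), with another Runx3 interval 6064 bases upstream (17.3), and Gbp2b had none.

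The chromosome 5 genes shared a feature in exon 2, singled out after its values were seen. In Gbp6 all 4 factors had an interval there in both lines, at chr5:105719831-105720165 in Scid.adh.2c2 and chr5:105719824-105720150 in ILC2/b6 (mm9), about 2.7 kb downstream of the start site. The scores in Scid.adh.2c2 were 94.6 for Bcl11b (rank 536 of 17874), 155.7 for GATA3 (rank 930 of 36973), 91.1 for Runx1 (rank 485 of 13664) and 181.8 for Runx3 (rank 338 of 20523). In ILC2/b6 they were 45.5 for Bcl11b (rank 4702 of 21677), 50.3 for GATA3 (rank 6284 of 33709), 39.4 for Runx1 (rank 9971 of 26258) and 151.7 for Runx3 (rank 4176 of 44938). The Bcl11b interval was the highest-ranked of all 11 named to a member in Scid.adh.2c2.

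Gbp11 had the same arrangement in exon 2, with all 4 factors in both lines 2575 to 2636 bases from the start site. For Gbp4 and Gbp9 the gene name is blank for some intervals, and those were identified by the start site accession, which RefSeq gives to these genes. With them, exon 2 of Gbp4 (2596 to 2637 bases from the start site) and of Gbp9 (4482 to 4546 bases) also carried all 4 factors in both lines. The non-member neighbours Gbp8 and Gbp10 had all 4 factors in exon 2 in both lines as well. These genes are close paralogs, the labels do not state how reads matching several of them were placed, and whether each gene is bound on its own was not tested.

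Exon intervals are uncommon in the lists. Of the Bcl11b intervals in Scid.adh.2c2, 3.21% lay in an exon outside the UTRs, against 4 of the 11 named to members. In ILC2/b6 the share was 3.87% of all and 3 of 16 for members. These member intervals are the exon 2 intervals singled out above, so nothing is read from their counts. A Bcl11b interval that met all 3 partners made up 12.8% of all in Scid.adh.2c2, and 5 of 11 at members, and 29% of all in ILC2/b6, and 8 of 16 at members. At members, GATA3 met 5 of 11 Bcl11b intervals in Scid.adh.2c2 (19.3% of all) and 10 of 16 in ILC2/b6 (35% of all). Runx1 met 8 of 11 (61.2%) and 13 of 16 (71%), and Runx3 met 10 of 11 (73.5%) and 14 of 16 (85%). Any partner was met by 10 of 11 and 15 of 16, near the 80.1% and 90.2% of all Bcl11b intervals. The sites of the chromosome 5 genes are paralogous and do not count as independent cases. The same holds in ILC2/b6 for Gvin1 intervals that repeat at its other copy.

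GATA3 marked a further shared position in 3 of these genes. Intron 3 held a GATA3 interval in Gbp4 (4532 bases from the start site in Scid.adh.2c2, 4544 in ILC2/b6), Gbp11 (4533 in both lines) and Gbp9 (6583 and 6575). It lay 1910 to 2060 bases beyond the exon 2 interval in all 3 genes and both lines. Sharing between lines varied by factor. Of the 20 GATA3 intervals in Scid.adh.2c2, 16 met a GATA3 interval of ILC2/b6, against 47.3% of the whole list, and 16 of the 32 in ILC2/b6 met one of Scid.adh.2c2, against 51.8%. For Bcl11b the counts were 7 of 11 (43.1% of the list) and 5 of 16 (35.6%), for Runx1 4 of 6 (50.7%) and 4 of 17 (26.4%), and for Runx3 6 of 10 (60.4%) and 6 of 33 (27.6%). The ILC2/b6 totals include Gvin1 intervals that repeat at its other copy.

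Some start sites were occupied. Of the named Bcl11b intervals, 3 of 11 were annotated to a promoter in Scid.adh.2c2 (35.8% of the list) and 3 of 16 in ILC2/b6 (23.4%). For Runx1 they were 2 of 6 (39.9%) and 8 of 17 (22.1%), and for Runx3 2 of 10 (31.8%) and 10 of 33 (19.0%). For GATA3 they were 0 of 20 (2.70%) and 3 of 32 (4.09%). The ILC2/b6 counts of each factor include Gvin1 intervals that repeat at its other copy. Unnamed intervals at the start sites of Gbp4 and Gbp9 are left out in both lines, so nothing is read from these counts. Gbp6 had Bcl11b, Runx1 and Runx3 intervals 3 to 41 bases upstream of its start site in both lines, with scores of 52.4, 24.1 and 39.2 in Scid.adh.2c2 and 19.1, 28.5 and 85.3 in ILC2/b6. At Gbp4, Bcl11b lay at the start site with scores of 56.5 in Scid.adh.2c2 and, unnamed, 37.3 in ILC2/b6, and Runx3 with 56.9 (unnamed) and 134.9. Unnamed Runx1 intervals lay there in both lines (30.7 and 54.3). At Gbp9 an unnamed Bcl11b interval covered the start site in Scid.adh.2c2 (score 59.3), where the nearest in ILC2/b6 was 492 bases upstream (30.9). Runx1 (32.4 in Scid.adh.2c2 and 34.3 in ILC2/b6) and unnamed Runx3 intervals (51.7 and 88.8) lay at the Gbp9 start site in both lines. Gbp3 carried Bcl11b in its 5' UTR in both lines (31.7 in Scid.adh.2c2 and 24.1 in ILC2/b6). Runx3 lay in that 5' UTR in both lines as well (22.6 and 48.5). In ILC2/b6 alone, Runx1 lay there (17.7) and GATA3 92 bases upstream of the start site (26.1). Gbp11 had Bcl11b (21.6) and Runx3 (20.6) at its start site in Scid.adh.2c2 and Runx3 (31.8) in ILC2/b6. Gbp5 had only Runx3 near its start site, 621 bases upstream (26.9) and 570 bases downstream (23.8), both in ILC2/b6. Gbp7 had Bcl11b 203 bases downstream of the start site, in intron 1, in Scid.adh.2c2 (16.5). In ILC2/b6 it had Runx1 and Runx3 at its start site (15.2 and 29.1).

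Some distal sites belonged to 1 line. In Scid.adh.2c2 a site 19987 to 20033 bases upstream of Gbp6 held Runx3 at rank 129 of 20523 (score 276.9), Runx1 at rank 233 of 13664 (120.3) and Bcl11b (52.5), and no interval of ILC2/b6 named to a member lay there. A site 48851 to 48903 bases upstream of Gbp5 held all 4 factors in Scid.adh.2c2, with GATA3 at rank 864 of 36973 (161.5), and no interval of the same factor in ILC2/b6. In ILC2/b6 a site 12534 to 12560 bases upstream of Gbp6, in a repeat annotated as RLTR13C2, held Bcl11b (25.7), Runx1 (95.0) and Runx3 (183.3). Another, 5751 to 5779 bases upstream of Gbp4, held Bcl11b (49.5), GATA3 (28.1), Runx3 (159.4) and an unnamed Runx1 interval (102.7). Neither had a named interval in Scid.adh.2c2.

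**Figure D4:**
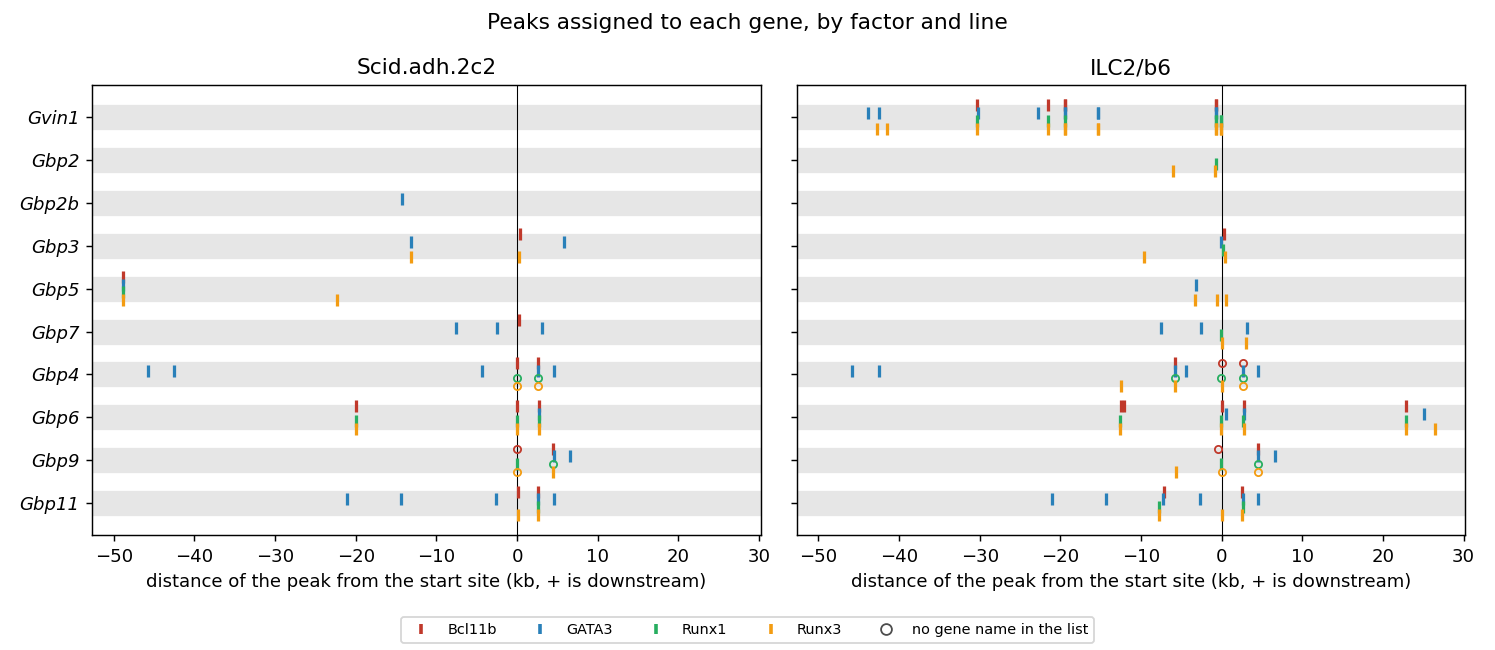
Distance in kb of each interval from the start site of its gene, for Bcl11b, GATA3, Runx1 and Runx3 (colours) in Scid.adh.2c2 and ILC2/b6; open circles are intervals with no gene name, identified by accession. Gbp4, Gbp6, Gbp9 and Gbp11 carry stacked marks between 2.6 and 4.5 kb in both lines, and Gvin1 has marks in ILC2/b6 but none in Scid.adh.2c2.

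Gvin1, like Gbp2, had no interval in the 4 Scid.adh.2c2 lists. In ILC2/b6 Gbp2 had 3 and Gvin1 had 35 (6 for Bcl11b, 10 for GATA3, 7 for Runx1 and 12 for Runx3). Between the first and last of these, chr7:113102374-113402870, the Scid.adh.2c2 lists held 1 interval under any name, a GATA3 interval assigned to Gm8979. The ILC2/b6 lists held 9, 18, 10 and 16 there for Bcl11b, GATA3, Runx1 and Runx3. Runx1 and Runx3 covered the start site (scores 88.1 and 137.1), Bcl11b, GATA3, Runx1 and Runx3 lay 709 to 734 bases upstream (34.2, 74.6, 66.6 and 78.7), and a site 21518 to 21557 bases upstream held Runx3 at rank 937 of 44938 (280.3), Runx1 (141.6) and Bcl11b (64.3). In Scid.adh.2c2, where it had no interval, the gene had 1.27 and 1.46 RPKM with the control guide. In ILC2/b6, where it had 6 Bcl11b intervals, it had 19.4 and 23.1 RPKM with the control guide, in a table normalized separately. A link between binding and level was not tested.

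The Gvin1 intervals also carry the mark of its copies. Of the 35, 22 form 11 pairs that lie 256369 to 256371 bases apart, the distance between the copies, and 9 pairs have the same score. Counted once, they leave 24 intervals. Whether both copies are bound was not tested.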

How the data were processed

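Cells carrying a Bcl11b guide or a control guide gave 8 RNA libraries, 2 per guide in each of 2 mouse lines. What the authors deposited is 1 table of RPKM (reads per kilobase of transcript, scaled to library depth) for each line. Per the submitters' processing notes, the tools were STAR 2.4.0, RSEM 1.2.25, edgeR 3.6.8, Trimmomatic, Bowtie 1.1.1 and HOMER, with the builds mm9 and NCBIM37, and no role is stated for any of them. Per the file headers, each of the 8 peak lists was annotated with HOMER on mm9 from a set of intervals passing the irreproducible discovery rate over 2 replicates, which leaves no comparison of peaks between replicates. The peak score and the fraction of tags near the centre are the authors' deposited values. The score describes and ranks intervals within a list, and 1 alternative applies a common minimum of 30. Scores of different lists are not on a shown common scale and are not compared. The fraction was not used in any result. The distance to the start site is another deposited HOMER value. The input libraries were not analysed here.

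Within each table, genes reaching 1 RPKM in 2 or more libraries were tested. The test was limma 3.58.1 with a mean-variance trend (R 4.3.3) on log2 of RPKM plus a pseudocount of 0.5, with Benjamini-Hochberg adjustment over all genes tested and a call at an adjusted p under 0.05. Fold changes on this scale understate the change of low genes. The difference between lines is the limma interaction over all 8 libraries, Scid.adh.2c2 minus ILC2/b6, in which a constant factor per gene and table cancels. Read totals were recovered from the steps of low RPKM values, of which 1759 to 2360 per library were tested and all were whole reads within 0.1 read. The limma script was tested on simulated data. Peaks overlap where at least 1 base is shared. Alternatives were another pseudocount, no filter, median-centred and quantile-normalized values, a replicate block, a joint fit, each library left out, a score of at least 30, a distance within 50 kb and a 50% overlap.

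The 10 genes and the gene lists were chosen with earlier results of these data known. Genes named from a list are the up to 4 tested members with the largest absolute log2 fold change in Scid.adh.2c2. Any other named gene was chosen after its values were seen. Some genes that the rule names are not reported here. Promoter sequences are from RefSeq (GRCm38.p6), which held 5 of the 10 genes. No label states that replicates came from separate cultures. The p-values therefore reflect the spread among libraries only, and that spread may be technical.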

Additional observations from a re-analysis of the deposited data

Results flagged for a closer look

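The change with the Bcl11b guide differed between the lines for each of the 10 genes in the limma interaction. The genes were chosen for their change in Scid.adh.2c2, so these differences, Scid.adh.2c2 minus ILC2/b6 on the log2 scale, are a description. The difference was 5.43 for Gvin1, 3.53 for Gbp2b, 3.30 for Gbp11, 3.25 for Gbp4 and 3.19 for Gbp6. It was 2.95 for Gbp2, 2.65 for Gbp5, 2.31 for Gbp9, 2.21 for Gbp7 and 2.04 for Gbp3. The value of Gbp2b rests on 4 to 8 reads per library in ILC2/b6.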

How the results depend on the processing

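In Scid.adh.2c2 all 10 genes stayed higher with the Bcl11b guide under each of the 11 alternatives run. All 10 differences between lines kept their direction under each of 14. Both contrasts hold the values that chose the genes, so nothing is read from these counts. In ILC2/b6 the count of 1 gene called became 0 without the filter on low values, 0 with quantile normalization, 4 in a joint fit of all 8 libraries and 0 to 3 on leaving out 1 library. With a replicate block, 5 genes were called in ILC2/b6, 4 higher (Gvin1, Gbp9, Gbp2 and Gbp7) and Gbp4 lower. Of all 10526 genes tested there, 2258 were called with the replicate block, 1537 in the joint fit and 1530 in the main fit. Same-numbered libraries correlated at 0.037 in Scid.adh.2c2 and 0.106 in ILC2/b6 after group means were removed, and the labels do not say that numbers pair the libraries. The count was 3 without control guide replicate 2 (Gvin1, Gbp2 and Gbp7 higher) and 0 without either Bcl11b guide library. Over all 11 alternatives the log2 values in ILC2/b6 ranged from 0.10 to 0.35 for Gvin1, 0.21 to 0.34 for Gbp2, 0.16 to 0.25 for Gbp7, 0.16 to 0.32 for Gbp9, -0.21 to -0.10 for Gbp6, -0.19 to -0.11 for Gbp11 and -0.30 to -0.09 for Gbp5. Gbp4 lost its call without the filter (adjusted p = 0.108), with quantile normalization (0.0647), and without control replicate 2 (0.0753), Bcl11b guide replicate 1 (0.263) or replicate 2 (0.0779), over a range of 0.0149 to 0.263. The value of Gbp3 in ILC2/b6 turned to -0.024 with median-centred values, -0.049 with quantile normalization, and ranged from -0.061 to 0.084 on leaving out 1 library, negative without control guide replicate 2 or Bcl11b guide replicate 1. Without the filter, where limma called 0, an unadjusted p under 0.05 was reached by 4 of 10 members and by 3705 of all 16707 genes. With quantile normalization, where limma also called 0, it was reached by 8 of 9 members and by 3007 of all 10526 genes. A score of at least 30 left 28 intervals in Scid.adh.2c2 and 62 in ILC2/b6. Chosen after seeing the data, merging the Gvin1 copies gave 87 in ILC2/b6, and adding intervals with no gene name gave 54 and 108. With 2 libraries per group, small changes in ILC2/b6 are the limit of what the test can settle. The cause of these shifts was not tested.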
